A study of Mus musculus with 35 samples.

Results

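The genes of retinoic acid metabolism and signalling followed across embryo stages and cultured pluripotent cells were Cyp26a1, Cyp26b1, Aldh1a2, Aldh1a3, Dhrs3, Crabp1, Crabp2, Rara, Rarb and Rarg. They were found by symbol, 10 of the 54446 genes in the table, and were chosen by a selection made with the values of all 27 libraries known, so their differences are given as descriptions. Where a member is said to be called, this places it against the limits used for all genes and is no independent test of it. The 27 bulk RNA libraries came from mouse material that was wild type apart from any reporter alleles, 3 for each of 9 groups. The 15 embryo libraries were made from untreated embryos of CD-1 or Pdgfra reporter mice, each library from pooled embryos. They were the inner cell mass (ICM) at E3.5 and the epiblast at each later day from E4.5 to E7.5. The E4.5 cells were picked as GFP-negative cells of the Pdgfra reporter line. The 12 culture libraries were EpiLCs, 2D EpiSCs and 3D EpiSCs derived either from ESCs or from embryos. Both 3D cultures grew inside Matrigel with FGF2, Activin-A, the tankyrase inhibitor XAV939 and the BMP antagonist Noggin, and the embryo-derived line started from E5.5 epiblasts. For such lines the paper names LifeAct-GFP and wild-type CD-1 embryos, without saying which gave the sequenced one. The 2D EpiSCs were converted from ESCs with FGF2 and Activin-A, and EpiLCs were ESCs held for 48 h in the same 2 factors. All of these EpiSC media contained the supplement B27, whose retinoid content is not given in the sources used here. Medium, dimension and, for the embryo-derived line, genetic background changed together, so their parts in a difference cannot be told apart.

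Retinoic acid is made from vitamin A in 2 enzymatic steps, retinol to retinal and retinal to retinoic acid, and the retinal dehydrogenases Aldh1a2 and Aldh1a3 carry out the second. Dhrs3 reduces retinal back to retinol, and Cyp26a1 and Cyp26b1 oxidise retinoic acid and so clear it. Crabp1 and Crabp2 bind retinoic acid in the cytoplasm, and the nuclear receptors Rara, Rarb and Rarg bind DNA as partners of the Rxr receptors at direct repeats of a short half-site. In the mouse embryo, retinoic acid synthesis is known to begin in the mesoderm during gastrulation, and Cyp26a1 and Rarb are textbook genes that respond to the ligand.

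The upstream sequences of Cyp26a1 and Rarb are shown because both hold the repeat that the receptors bind and both genes varied widely over the groups. RefSeq windows of 300 bases (250 before and 50 after each start, GRCm38.p6, the same assembly as mm10) were held for 8 of the 10 members, 14 windows in all. They were searched on both strands for a direct repeat, with a spacer of 5 bases, of any pair from the half-site AGGTCA and its variants, which were GGGTCA as well as AGTTCA and in addition GGTTCA. Cyp26a1 and Rarb each had 1 match, and the 12 other member windows had none. Of all 32851 windows, 32 (0.0974%) held such a repeat, against 73 (0.222%) with a spacer of 1 and 88 (0.268%) with a spacer of 2, which were found in no member window. The matches do not overlap any other repeat searched. The 250 bases before each start follow, 5′ to 3′ on the gene's strand, with the repeat in capitals.
Cyp26a1 (chr19:37697558-37697807, plus strand): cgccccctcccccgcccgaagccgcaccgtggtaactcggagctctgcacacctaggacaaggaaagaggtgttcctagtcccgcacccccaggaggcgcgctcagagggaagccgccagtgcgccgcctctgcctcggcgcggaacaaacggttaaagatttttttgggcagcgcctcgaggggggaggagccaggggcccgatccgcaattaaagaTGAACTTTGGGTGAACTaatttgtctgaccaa
Rarb (chr14:16575477-16575726, minus strand): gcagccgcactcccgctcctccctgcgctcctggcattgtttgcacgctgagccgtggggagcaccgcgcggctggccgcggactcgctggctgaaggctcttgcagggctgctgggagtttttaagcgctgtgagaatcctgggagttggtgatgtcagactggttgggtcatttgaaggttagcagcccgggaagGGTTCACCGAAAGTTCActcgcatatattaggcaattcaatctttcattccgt
The repeat of Cyp26a1 lay 15 to 32 bases before its start and reads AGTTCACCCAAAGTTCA on the opposite strand. That of Rarb lay 36 to 53 bases before the start of the RefSeq transcript used for its window, on the strand of the gene. This start lies inside the longer span that the gene has in the annotation of the deposited values, not at its outer end. Each is a match of letters, and binding was not measured here.

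All values are TPM, the transcript share of a gene scaled to a fixed library total, which correct for gene length and so allow levels of different genes to be compared within a library. They keep no record of sequencing depth. Between 20324 and 26751 genes were above 0 in an embryo library and between 22215 and 24438 in a culture library. The culture libraries were made by poly-A capture and the embryo libraries from total RNA with another kit. The sets were therefore fitted apart, and their levels are set side by side with no test. Among embryo libraries, those of E3.5 and E4.5 had a gentler and longer fragmentation than the later ones. For members and other genes alike, this cannot be told apart from the step between E4.5 and E5.5. In culture, 3 replicate pairs were near-identical, with a median absolute log2 difference of 0.061 for ESC-derived replicates 1 and 2, 0.057 for embryo-derived replicates 2 and 3 and 0.065 for 2D replicates 1 and 2, while ESC-derived replicate 3 stood 0.27 from its fellows. Nothing in the labels says that replicates came from separate cultures, so p-values measure the spread between these libraries, which may be technical. The E3.5 ICM carried trophoblast and endoderm markers (Cdx2 at 157 to 168 TPM, Gata6 at 112 to 122). In the E4.5 epiblast the sum of 4 trophoblast markers was 234 to 247 TPM, with 3 of them above 2 TPM in all 3 libraries. That of 6 endoderm markers was 44.7 to 57.0 TPM there. The E5.5 to E7.5 epiblasts carried visceral endoderm markers (Ttr at 80.0 to 276 TPM, Afp at 75.5 to 128), which were at or near 0 in the cultures. The part of such cells in the stage differences of members was not tested. In bulk RNA, fewer cells of a type and less RNA per cell cannot be told apart.

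**Figure D1:**
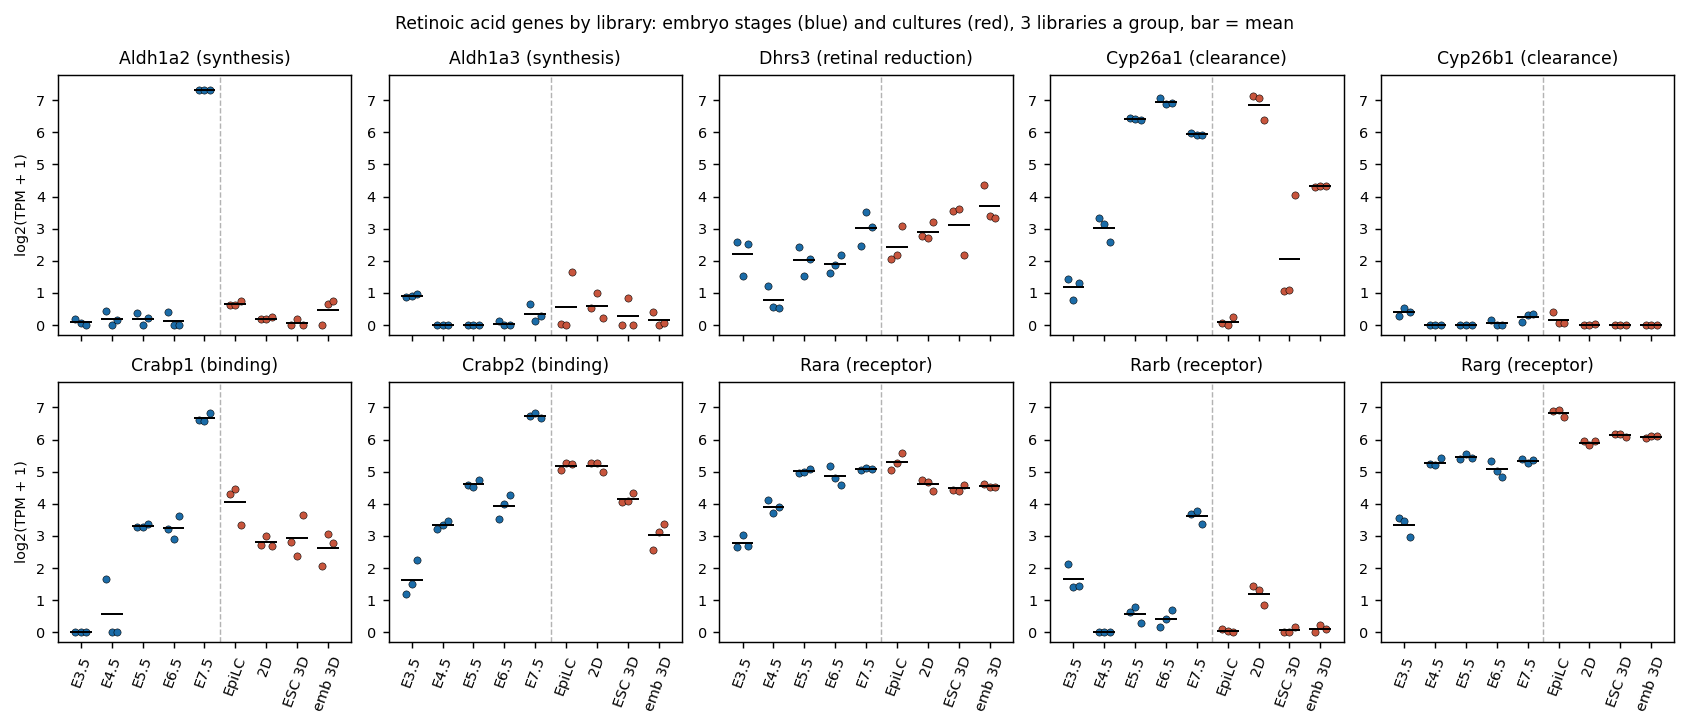
Each panel plots 1 gene as log2(TPM + 1) by group, embryo stages in blue left of the dashed line and cultures in red right of it, with a point for each library and a bar at the mean of 3. Aldh1a2 stood near 0 in every group but E7.5, where its 3 libraries reached 157 to 159.7 TPM, and Cyp26a1 ran from 0 to 139 TPM.

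Among the enzymes that make retinoic acid, Aldh1a2 was detected at a substantial level at E7.5 alone. Aldh1a2 (chr9:71215789-71296243, plus strand), the main retinal dehydrogenase of early mesoderm, had 157, 158 and 159.7 TPM in the 3 E7.5 epiblast libraries. In the 24 other libraries it lay between 0 and 0.671 TPM. The E7.5 mean was 158 ± 1.37 TPM (SD, n = 3) against 0.111 ± 0.192 TPM at E6.5, a difference of 7.18 on the log2(TPM + 1) scale (SE 0.14), and that scale understates the change of a gene near 0. It passed the filter on low values through the E7.5 libraries alone. Mesoderm markers stood beside it: T was at 93.1 to 98.4 TPM at E7.5 and 28.1 to 31.0 TPM at E6.5, and Tbx6, a factor of paraxial mesoderm, was at 23.4 to 26.2 TPM against 0 to 1.41 TPM. The summed level of all 11 streak and mesoderm markers was 362 to 367 TPM at E7.5 and 304 to 378 TPM at E6.5, with 9 and 8 markers above 2 TPM in all 3 libraries, and Mesp1 was lower at E7.5 (13.3 to 14.6 TPM) than at E6.5 (48.9 to 73.3 TPM). The part of mesoderm cells in the Aldh1a2 level was not tested.

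Aldh1a3 (chr7:66390890-66427517, minus strand), a dehydrogenase better known from eye and nose, did not pass the filter in either set. It had 0.815, 0.884 and 0.956 TPM in the E3.5 ICM and 0 in all E4.5 and E5.5 libraries. Its highest value was 2.11 TPM in EpiLC replicate 3, whose fellows had 0.0206 and 0 TPM.

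Dhrs3 (chr4:144892827-144928209, plus strand) was present in all 27 libraries at low to moderate levels. It had 5.01, 1.90 and 4.76 TPM in the ICM and 1.32, 0.482 and 0.458 TPM in the E4.5 epiblast. It then had 4.396, 1.89 and 3.20 TPM at E5.5, 2.10, 2.64 and 3.58 TPM at E6.5 and 4.56, 10.5 and 7.23 TPM at E7.5. The E4.5 libraries lay below all those of the neighbouring stages, and those of E7.5 above all of E6.5. The difference of E7.5 and E6.5 was 1.12 on the log2 scale (SE 0.33), and it came under 1 without E6.5 replicate 1 (0.98) or E7.5 replicate 2 (0.86) and with rescaled TPM (0.84). In culture its means were 4.73 ± 2.37 TPM in EpiLCs, 6.55 ± 1.44 in 2D EpiSCs, 8.50 ± 4.29 in ESC-derived and 12.8 ± 5.95 in embryo-derived 3D EpiSCs (SD, n = 3). All neighbours in that order overlapped. The embryo-derived libraries (9.05 to 19.6 TPM) lay above those of the 2D EpiSCs (5.55 to 8.20 TPM), by 0.80 on the log2 scale (SE 0.40), which was inside the limit of 1.

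The clearing enzyme Cyp26a1 (chr19:37697808-37701528, plus strand) spanned the largest range of levels among the members in culture and came ahead of Aldh1a2 in the embryo. In the embryo it had 1.70, 0.716 and 1.49 TPM at E3.5 and 9.03, 7.87 and 4.94 TPM at E4.5. At E5.5 it had 86.5, 83.7 and 82.1 TPM, and at E6.5 its highest embryo values, 133, 116 and 119 TPM. At E7.5 it had 62.1, 59.6 and 59.2 TPM. No stage overlapped another. The log2 differences were 1.84 (SE 0.18) from E3.5 to E4.5, 3.40 (SE 0.18) to E5.5, 0.53 (SE 0.18) to E6.5 and -1.01 (SE 0.18) to E7.5. The last lay at the limit of 1 and fell inside it without E6.5 replicate 1 (-0.95) or E7.5 replicate 3 (-0.996). In the E5.5 and E6.5 epiblast, Cyp26a1 thus stood at 84.1 ± 2.23 and 122 ± 9.17 TPM (SD, n = 3) while Aldh1a2 and Aldh1a3 stood at 0.333 TPM or less in each library. At E7.5 Aldh1a2 was the higher of the pair.

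In culture Cyp26a1 had 139, 134 and 82.5 TPM in 2D EpiSCs and 18.6, 19.0 and 19.3 TPM in embryo-derived 3D EpiSCs. It had 1.08, 1.15 and 15.6 TPM in ESC-derived 3D EpiSCs and 0.0454, 0 and 0.187 TPM in EpiLCs. The 4 cultures did not overlap, but ESC-derived replicate 3 lay close to the embryo-derived line and far from its own group. On the log2 scale, Cyp26a1 was lower than in 2D EpiSCs by a difference of -4.79 (SE 0.61) in ESC-derived and -2.54 (SE 0.61) in embryo-derived 3D EpiSCs, comparisons that share their 2D EpiSC libraries. It differed by 6.76 (SE 0.61) between 2D EpiSCs and EpiLCs. Without ESC-derived replicate 3 the first difference was -5.78. The ESC-derived culture stood -2.25 (SE 0.61) from the embryo-derived one, and -3.24 without replicate 3. It was no longer called without ESC-derived replicate 1 (-1.74) or 2 (-1.76), or without embryo-derived replicate 2 (-2.25) or 3 (-2.24). With near-identical replicates averaged, the embryo-derived culture was no longer called against 2D EpiSCs (-2.43), nor the ESC-derived against the embryo-derived (-1.74).

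Across these cultures the summed level of endoderm markers had the same order as Cyp26a1. Foxa2 did not, nor did Gata4 between EpiLCs (0.228 to 0.598 TPM) and ESC-derived 3D EpiSCs (0.0542 to 0.495 TPM). Taken library by library, the other markers did not keep it either. For Gata6, ESC-derived replicates 1 and 2 (0.0628 and 0.118 TPM) lay below all EpiLC libraries (0.143 to 0.227 TPM). They did so for Hhex too (1.99 and 1.92 against 2.11 to 3.28 TPM). For Sox17 they lay inside the EpiLC range (0.0815 to 0.299 TPM). Cer1 was higher in ESC-derived replicate 3 than in embryo-derived replicate 1 (119 and 56.7 TPM). The summed level of 6 endoderm markers (Sox17, Gata6, Gata4, Foxa2, Hhex, Cer1) was 3.51 to 4.90 TPM in EpiLCs and 402 to 504 TPM in 2D EpiSCs. It was 203 to 310 TPM in embryo-derived 3D EpiSCs. In ESC-derived 3D EpiSCs it was 37.4 and 37.3 TPM in replicates 1 and 2 and 158 TPM in replicate 3. Cer1, a secreted antagonist made by anterior endoderm, was at 2.44, 2.36 and 119 TPM in the ESC-derived libraries, and Sox17 at 0.262, 0.235 and 6.73 TPM, so that Cer1 made up most of the sum in replicate 3. Foxa2, a factor of endoderm and the anterior streak, went the other way in these libraries, at 32.6, 32.5 and 17.2 TPM. It was also higher in the embryo-derived libraries (122.7, 50.1 and 50.6 TPM) than in 2D EpiSCs (24.6 to 33.0 TPM). The visceral endoderm markers Afp and Ttr were at 0.258 TPM or less in all 12 culture libraries. A similar order was seen in other lists, so it was not particular to endoderm markers. The sum of 11 streak and mesoderm markers was 44.9 to 53.4 TPM in EpiLCs and 148 to 161 TPM in 2D EpiSCs. It was 80.0 to 94.2 TPM in ESC-derived and 119 to 213 TPM in embryo-derived 3D EpiSCs. The sum of 4 trophoblast markers was 1.57 to 1.77, 8.64 to 17.6, 0.777 to 4.97 and 3.52 to 4.19 TPM in these cultures. The part of endoderm or other cells in the Cyp26a1 level was not tested.

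**Figure D2:**
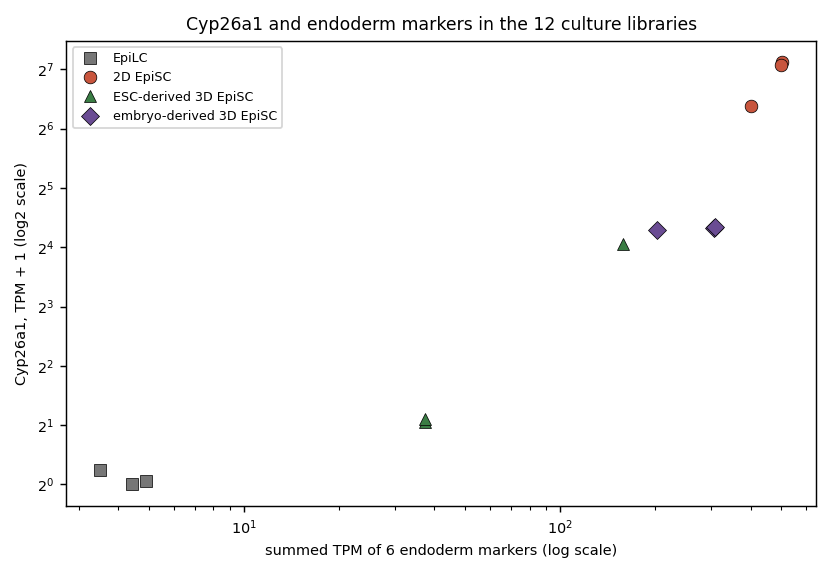
For the 12 culture libraries, the summed TPM of 6 endoderm markers (horizontal, log scale) is set against Cyp26a1 (vertical, TPM + 1 on a log2 scale), with a symbol for each culture. ESC-derived replicate 3, with 158 TPM of markers and 15.6 TPM of Cyp26a1, lies beside the embryo-derived libraries and apart from its fellows at 37.4 and 37.3 TPM.

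Cyp26b1 (chr6:84571414-84593908, minus strand), the related hydroxylase of limb and gonad, was at or near 0 throughout. It was listed at 0 in 16 of 27 libraries, and its highest value was 0.446 TPM, in E3.5 ICM replicate 2. All 3 ICM libraries held some (0.211, 0.446 and 0.326 TPM), as did those of E7.5 (0.0709, 0.247 and 0.259 TPM), and it was tested in neither set.

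Both retinoic acid binding proteins were at their highest at E7.5. Crabp1 (chr9:54764748-54773110, plus strand) was listed at 0 in the ICM and in 2 of 3 E4.5 libraries, with 2.18 TPM in the other. It had 8.78, 8.64 and 9.39 TPM at E5.5 and 8.32, 6.52 and 11.2 TPM at E6.5. At E7.5 it had 97.3, 93.9 and 113 TPM, above every other library of the series. The difference of E7.5 and E6.5 was 3.42 on the log2 scale (SE 0.34), and that of E5.5 and E4.5 was 2.75 (SE 0.34), while E5.5 and E6.5 overlapped (-0.06, SE 0.34).

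Crabp2 (chr3:87948666-87953376, plus strand), which hands the ligand to the receptors, had 1.29, 1.81 and 3.71 TPM in the ICM and 8.20, 9.11 and 9.99 TPM at E4.5. It had 23.2, 22.0 and 25.6 TPM at E5.5 and fewer, 10.6, 15.04 and 18.3 TPM, at E6.5. At E7.5 it had 105, 111 and 100.2 TPM. The 5 stages did not overlap, and the log2 differences were 1.69 (SE 0.22), 1.29 (SE 0.22), -0.68 (SE 0.22) and 2.80 (SE 0.22) in order of stage. The share of Crabp1 in the summed TPM of the pair went from 27.5 ± 0.697% at E5.5 to 37.5 ± 6.93% at E6.5 and 48.9 ± 3.68% at E7.5 (SD, n = 3), and the ranges of these 3 stages did not overlap. The summed level was 32.5 ± 2.24, 23.3 ± 5.54 and 207 ± 5.36 TPM.

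In culture the pair behaved differently from each other. Crabp2 had 32.5, 37.2 and 36.6 TPM in EpiLCs and 37.9, 37.2 and 30.5 TPM in 2D EpiSCs, which overlapped (difference -0.01, SE 0.18). It had 15.5, 15.9 and 19.2 TPM in ESC-derived and 4.94, 7.68 and 9.25 TPM in embryo-derived 3D EpiSCs. All libraries of both 3D cultures lay below those of the 2D cultures, and the embryo-derived libraries below the ESC-derived. Against 2D EpiSCs the log2 difference was -1.02 (SE 0.18) for the ESC-derived culture, just past the limit of 1, and -2.16 (SE 0.18) for the embryo-derived. The former was not called with rescaled TPM (-0.80) or with near-identical replicates averaged (-0.92), nor without replicate 1 or 2 of either culture (-0.98 to -0.96). The ESC-derived minus the embryo-derived culture gave 1.14 (SE 0.18), and 0.92 without embryo-derived replicate 1, which was not called. Crabp1 had 18.9, 21.0 and 9.22 TPM in EpiLCs and 5.55, 6.91 and 5.48 TPM in 2D EpiSCs, a difference of -1.25 (SE 0.36). Its 6 values in the 3D cultures, from 3.22 to 11.6 TPM, overlapped those of the 2D EpiSCs.

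**Figure D3:**
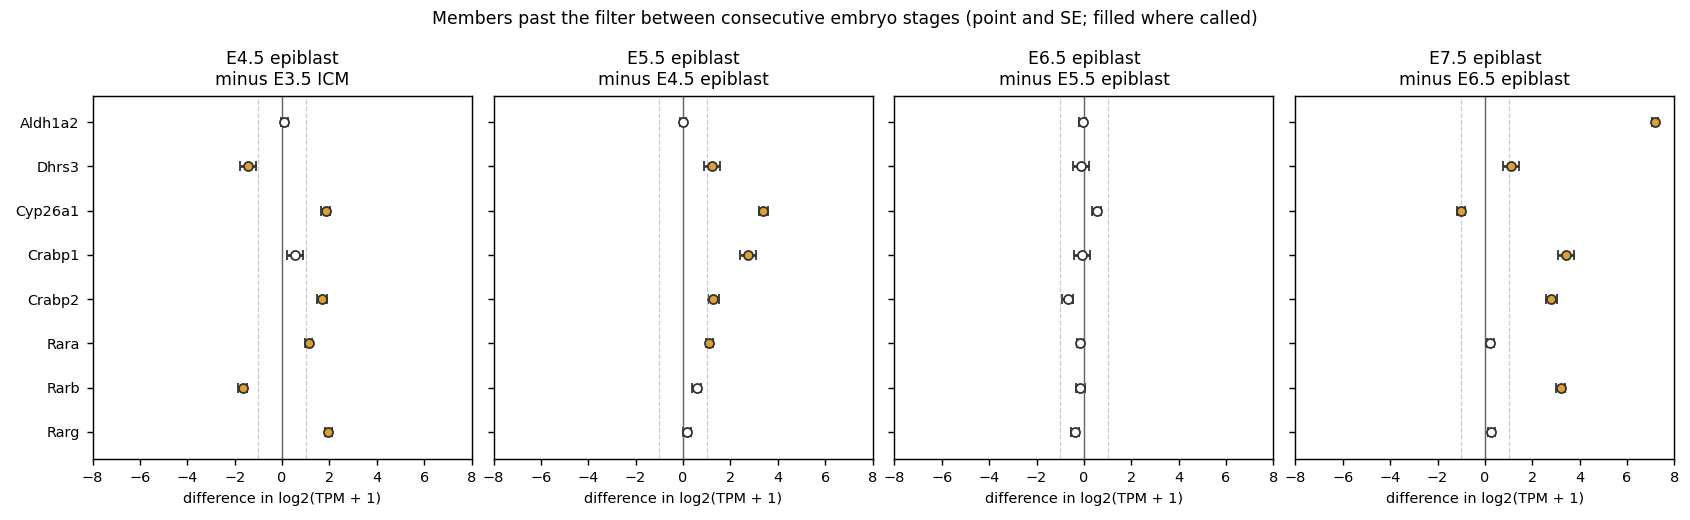
For the 8 members past the filter in the embryo, the later minus the earlier stage is plotted as a difference in log2(TPM + 1) with its SE, filled where called, with dashed lines at -1 and 1. Aldh1a2 (7.18), Crabp1 (3.42), Rarb (3.20) and Crabp2 (2.80) lie farthest to the right between E6.5 and E7.5, and no point is filled between E5.5 and E6.5.

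Of the receptors, Rara and Rarg were present in every library, and Rarb was high at E7.5. Rarg (chr15:102234938-102257517, minus strand) had 10.8, 9.98 and 6.89 TPM in the ICM and 36.6, 35.6 and 41.8 TPM at E4.5, a log2 difference of 1.95 (SE 0.15). From E4.5 to E7.5 its 12 libraries lay between 27.5 and 45.4 TPM, and of neighbouring stages E5.5 and E6.5 alone did not overlap (-0.38, SE 0.15). Rara (chr11:98927818-98974942, plus strand) had 5.35, 7.10 and 5.44 TPM in the ICM, 16.5, 12.1 and 13.8 TPM at E4.5 and 30.4, 30.7 and 32.7 TPM at E5.5. Its log2 differences were 1.12 (SE 0.15) and 1.099 (SE 0.15) at those steps, the latter 0.96 and not called with rescaled TPM, and from E5.5 on it lay between 23.1 and 34.9 TPM with overlap of neighbours. Rara and Rarg were each higher at E7.5 than at E6.5 by 0.22 and 0.27 on the log2 scale, signs that turned with rescaled TPM (-0.11 and -0.06).

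Rarb (chr14:16430839-16819156, minus strand), itself a target of the receptors, had 3.40, 1.67 and 1.74 TPM in the ICM and was listed at 0 in all E4.5 libraries. It lay between 0.113 and 0.732 TPM at E5.5 and E6.5 and had 11.8, 12.7 and 9.33 TPM at E7.5. The difference of E7.5 and E6.5 was 3.20 on the log2 scale (SE 0.20). It passed the filter through the E7.5 libraries and 1 ICM library. Its annotated span overlaps the gene Top2b on the opposite strand, which reached 65.2 TPM. Both library kits mark strand, but the strand setting of the counting is not given in the sources used here, so a share of Top2b reads in Rarb was not tested. Rarb was 12.9 ± 4.29% of the summed TPM of the 3 receptors in the ICM, 0.624 ± 0.522% at E6.5 and 13.5 ± 1.91% at E7.5 (SD, n = 3). Rarg was the largest share at every stage, from 47.3 ± 2.31% at E7.5 to 72.9 ± 3.46% at E4.5.

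In culture, Rarg was again the most abundant receptor, at 117, 121 and 103 TPM in EpiLCs. It had 60.8, 55.3 and 60.9 TPM in 2D EpiSCs, 70.4, 70.4 and 67.0 TPM in ESC-derived and 64.7, 68.0 and 68.6 TPM in embryo-derived 3D EpiSCs. EpiLCs stood apart from the rest, the 3D cultures overlapped each other, and both lay above the 2D EpiSCs by 0.23 and 0.18 on the log2 scale (SE 0.09 each), inside the limit of 1. The difference of 2D EpiSCs and EpiLCs was -0.93 (SE 0.09), and with rescaled TPM it was past the limit (-1.15). Rara had 32.4, 37.9 and 47.3 TPM in EpiLCs and 20.3 to 25.8 TPM in the 9 other culture libraries, where the groups overlapped. Rarb did not pass the filter in culture. It had 1.69, 1.48 and 0.8001 TPM in 2D EpiSCs and 0 to 0.167 TPM in the 9 other culture libraries. Cyp26a1, the other gene whose upstream window holds the repeat, was also highest in 2D EpiSCs. In the embryo these 2 genes went opposite ways from E6.5 to E7.5 (Cyp26a1 -1.01, Rarb 3.20). A link between the repeat and the levels was not tested.

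**Figure D4:**
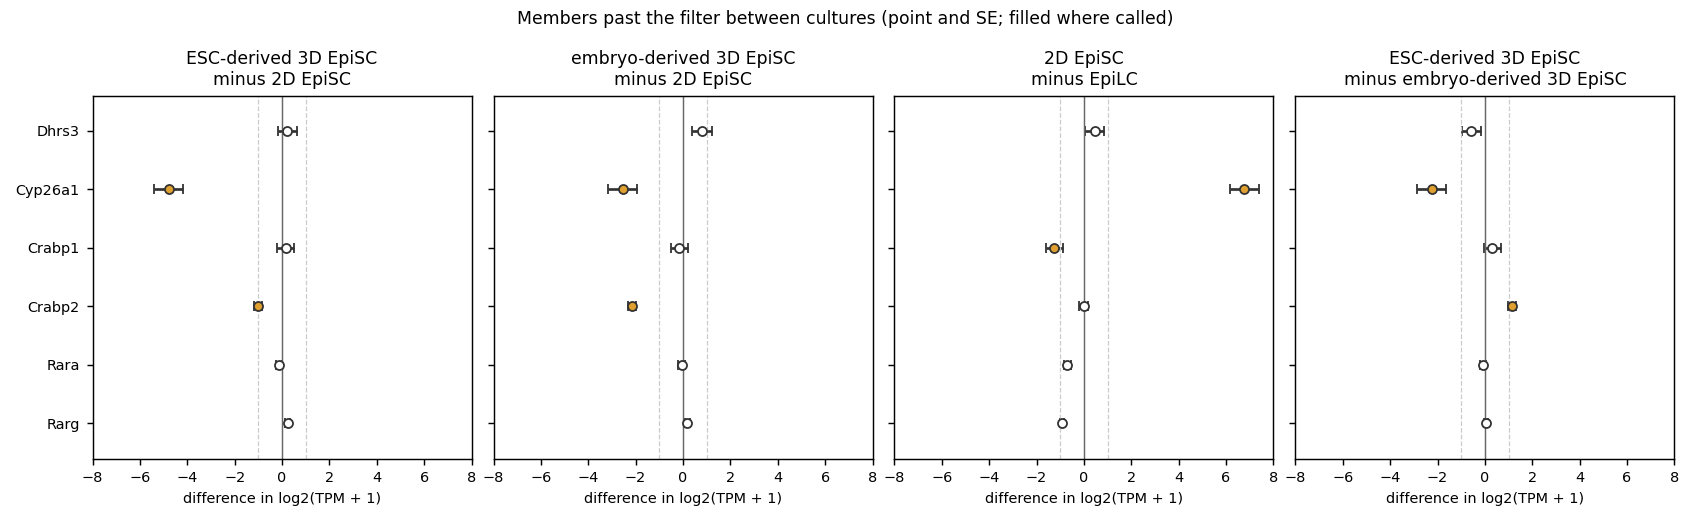
For the 6 members past the filter in culture, each of 4 comparisons is plotted as a difference in log2(TPM + 1), first minus second culture, with its SE, filled where called. Cyp26a1 is filled in all 4 panels, from -4.79 to 6.76, Crabp2 in 3, and Dhrs3, Rara and Rarg in none.

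Calls required both a log2 difference past 1 in either direction and a limma p below 0.05 after Benjamini-Hochberg adjustment over all tested autosomal protein-coding genes. The members' counts stand here beside the share of all genes, and nothing is read from them, since the values chose the members. The filter, a TPM above 2 in at least 3 libraries, was passed by 6 members in culture and 8 in the embryo. From E3.5 to E4.5, 4 members (Cyp26a1, Crabp2, Rara, Rarg) were called higher and 2 (Dhrs3, Rarb) lower, beside 5.88% and 11.9% of 11880 genes. From E4.5 to E5.5, 5 (Cyp26a1, Crabp1, Crabp2, Dhrs3, Rara) were higher, beside 14.9% higher and 9.47% lower among all genes. From E5.5 to E6.5, limma called 0 members in either direction, where 0.715% of genes were higher and 0.48% lower. This count does not show that no member changed, since differences inside the limits are not called. With an intensity trend the count was also 0. From E6.5 to E7.5, 5 (Aldh1a2, Crabp1, Crabp2, Rarb, Dhrs3) were higher and Cyp26a1 lower, beside 10.6% and 1.94%.

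In culture, Cyp26a1 and Crabp2 were called lower in both 3D cultures than in 2D EpiSCs. The shares over 11541 genes were 0.633% (higher) and 9.25% (lower) for the culture from ESCs, against 1.07% (higher) and 7.75% (lower) for that from embryos. Between 2D EpiSCs and EpiLCs, Cyp26a1 was called higher and Crabp1 lower, beside 15.2% and 5.14%. Between the ESC-derived and the embryo-derived culture, Crabp2 was higher and Cyp26a1 lower, beside 1.98% in each direction. TPM is a share of each library, and the median log2 difference over all genes was 0.31 between E7.5 and E6.5, 0.16 between E5.5 and E4.5, -0.21 between ESC-derived 3D and 2D EpiSCs, 0.18 between 2D EpiSCs and EpiLCs and -0.12 between both 3D cultures. When the TPM were rescaled (median of ratios), the calls over all genes went from 1265 higher and 231 lower to 736 and 382 between E7.5 and E6.5. They went from 1756 and 593 to 1336 and 786 between 2D EpiSCs and EpiLCs, and from 228 and 229 to 270 and 149 between both 3D cultures.

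The wider pathway was followed in 34 further genes in 4 lists: retinoid supply and storage (10), other enzymes of synthesis and clearance (2), receptor partners and coregulators (10) and textbook target genes (12). These lists were also drawn up with earlier results of these data known, so their p-values are not independent evidence. In the embryo 28 of the 34 were tested. From E3.5 to E4.5, 2 were called higher and 8 lower, beside 5.88% and 11.9% of all genes. The median log2 difference was -0.43 over the lists and -0.10 over all genes. Adh1, an alcohol dehydrogenase that can oxidise retinol, had 185, 198 and 169 TPM in the ICM and 1.42, 1.88 and 0.412 TPM at E4.5, a difference of -6.43 (SE 0.19). Stra6, the membrane receptor that takes up retinol, fell by 3.84 on the log2 scale (limma adjusted p = 8.24e-11) and Fabp5, a fatty acid carrier that also binds retinoic acid, by a difference of -3.07 (adjusted p = 3.11e-10). Aldh1a1, the third retinal dehydrogenase, had 3.57, 3.93 and 3.53 TPM in the ICM and 0 to 0.388 TPM at E4.5, a difference of -1.92 (SE 0.12). Adh1 and Aldh1a1 were above 2 TPM in the 3 ICM libraries alone among the embryo libraries, so they entered the fit through the group where they are high, and no p is given for them. Meis2, a homeobox cofactor, rose by 1.92 (adjusted p = 9.43e-06) and the retinal reductase Rdh11 by 1.25 (adjusted p = 7.63e-07). Endoderm and trophoblast marker sums were also higher in the ICM, at 308 to 314 and 411 to 431 TPM against 44.7 to 57.0 and 234 to 247 TPM at E4.5. The trophoblast markers were divided. Cdx2 (157 to 168 and 22.2 to 26.3 TPM) and Gata3 (203.5 to 220 and 84.6 to 93.7 TPM) were lower at E4.5. Elf5 (47.3 to 53.7 and 124 to 130.02 TPM) and Ascl2 (0 to 0.546 and 1.07 to 3.23 TPM) were higher. The part of endoderm or trophoblast cells in these differences was not tested.

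From E4.5 to E5.5, 7 of the 28 were called higher and 6 lower, beside 14.9% and 9.47% of all genes. The median was 0.12 over the lists and 0.16 over all genes. Rbp4, the carrier of retinol in blood, was listed at 0 in all E3.5 and E4.5 libraries and had 41.2, 42.2 and 39.6 TPM at E5.5 (limma adjusted p = 1.49e-15). Stra6 rose by 2.96 (adjusted p = 6.11e-10) and Fabp5 by 2.29 (adjusted p = 3.68e-09). Among the genes that fell were the homeobox gene Cdx1 (-2.63, adjusted p = 2.39e-09), the coactivators Ncoa3 (-2.19, adjusted p = 4.46e-11) and Ncoa1 (-1.57, adjusted p = 9.92e-08) and Meis2 (-1.96, adjusted p = 5.36e-06). The sum of 7 visceral endoderm markers was 122 to 135 TPM at E4.5 and 762 to 818 TPM at E5.5, with 3 and 7 of them above 2 TPM in all 3 libraries. The sum of 4 trophoblast markers went the other way, from 234 to 247 TPM at E4.5 to 7.62 to 9.34 TPM at E5.5, with Elf5 at 124 to 130.02 and 2.86 to 5.06 TPM and Gata3 at 84.6 to 93.7 and 1.22 to 1.42 TPM. The part of either tissue in the genes that rose or fell was not tested. The E3.5 and E4.5 libraries were also made with a gentler and longer fragmentation than the later ones, which cannot be told apart from this step.

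From E5.5 to E6.5, Rbp4 and Meis2 were the genes called, both higher, where 0.715% of all genes were called higher and 0.48% lower. Rbp4 had 97.6, 102 and 104 TPM at E6.5 (a difference of 1.29, limma adjusted p = 7.23e-08), and Meis2 had 3.55, 3.35 and 2.44 TPM (1.07, adjusted p = 0.0103). Meis2 was no longer called without E5.5 replicate 2 (adjusted p = 0.0513) or E6.5 replicate 1, where its difference was under 1. The sum of 7 visceral endoderm markers was 762 to 818 TPM at E5.5 and 1255 to 1323 TPM at E6.5. That of 11 streak and mesoderm markers was 97.4 to 107 and 304 to 378 TPM, and that of 6 endoderm markers 96.4 to 101 and 151 to 176 TPM. The part of those cells in the Rbp4 and Meis2 differences was not tested.

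From E6.5 to E7.5, 10 of the 28 were called, all of them higher. Calls over all genes lay mostly on that side too, with 10.6% higher and 1.94% lower. The median was 0.68 over the lists and 0.31 over all genes, and 6 of the 10 were among the 9 tested target genes. Cdx1, a posterior homeobox gene, had 119, 129.98 and 121 TPM at E7.5 against 0.376, 0 and 0 TPM at E6.5, a difference of 6.80 (limma adjusted p = 7.70e-13). Hoxb1, an anterior gene of its cluster, had 45.3, 46.4 and 50.7 TPM at E7.5, where no E6.5 library passed 0.656 TPM, a difference of 5.18 (SE 0.15). Meis2 rose by 4.46 (limma adjusted p = 3.98e-09). Meis1, Nr2f2, Cyp26c1, Rbp4 and Stra6, listed after their values were seen, were also called. Of these, Cyp26c1, the third retinoic acid hydroxylase, had 3.35, 3.12 and 3.40 TPM at E7.5 and 0.746 TPM or less at E6.5. Hoxb1 and Cyp26c1 were above 2 TPM in the E7.5 libraries alone, so they passed the filter through that group, the count of 10 holds such genes, and no p is given for them. Rbp4 and Stra6 came under a difference of 1 with rescaled TPM (0.98 and 0.78), and Stra6 also without E6.5 replicate 2 (0.997). Markers of other cell types differed at this step beside those of mesoderm given above. The sum of 4 neural markers was 3.95 to 6.75 TPM at E6.5 and 36.2 to 40.9 TPM at E7.5, and that of 4 trophoblast markers 10.2 to 13.1 and 65.1 to 71.0 TPM, mostly Cdx2. These trophoblast markers were divided. Gata3 was higher at E7.5 too (1.14 to 2.00 and 10.4 to 11.2 TPM), Elf5 was lower (4.59 to 5.06 and 0 to 0.579 TPM), and Ascl2 overlapped. The sum of 7 epiblast markers was 1194 to 1293 TPM at E6.5 and 361 to 389.97 TPM at E7.5. Their part in the E7.5 levels of pathway genes and members was not tested.

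**Figure D5:**
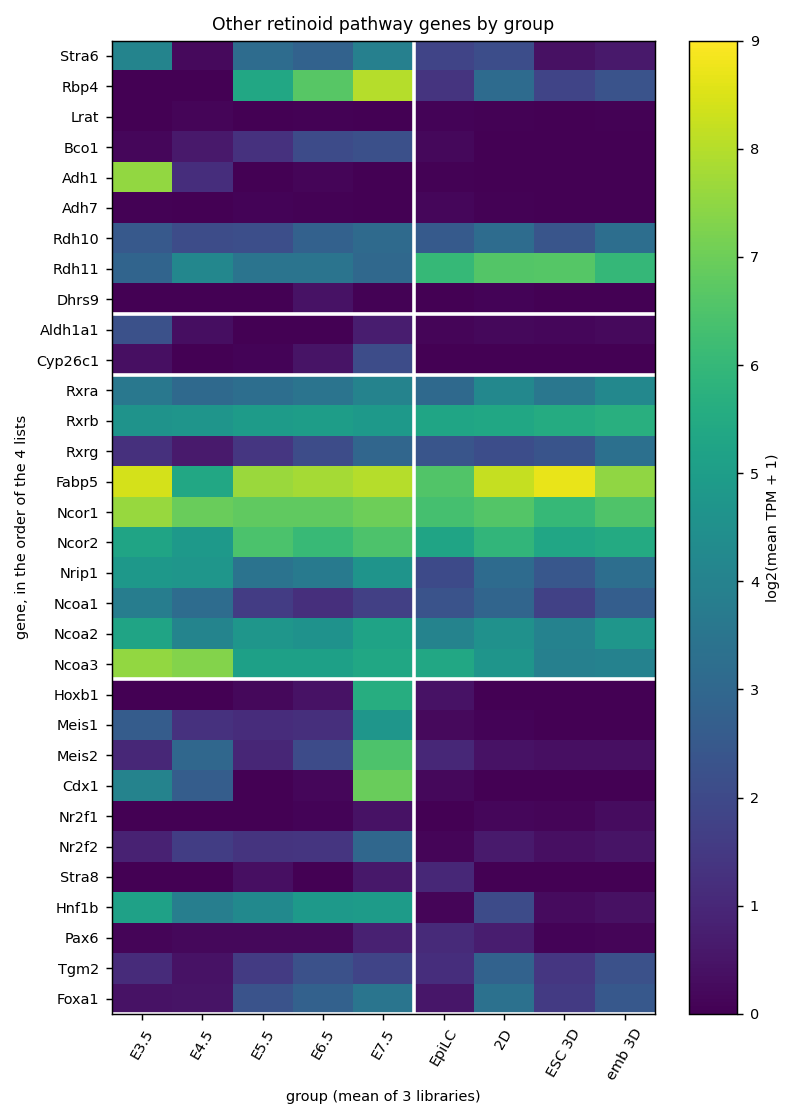
Other pathway genes (rows, in the order of the 4 lists parted by white lines) are shown in the 9 groups (columns, embryo left of the white line) as log2 of the mean TPM of 3 libraries plus 1. Hoxb1, Meis2 and Cdx1 are bright at E7.5 and dark in the cultures, and Adh1 is bright in the E3.5 ICM.

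In culture 17 of the 34 genes were tested, and of the 12 target genes Foxa1 and Tgm2 alone passed the filter. Hoxb1 and Cdx1 were at 0.720 TPM or less in all 12 culture libraries. Between 2D EpiSCs and EpiLCs, 7 genes were called, all higher in 2D EpiSCs, where 15.2% of all genes were called higher and 5.14% lower. The median was 0.65 over the lists and 0.18 over all genes. Foxa1, an endoderm factor, had 11.9, 10.4 and 5.41 TPM in 2D EpiSCs against 0.542, 0.463 and 0.401 TPM in EpiLCs (2.74, limma adjusted p = 1.61e-04). Rbp4 (1.78, limma adjusted p = 7.35e-04) and Fabp5 (1.67, adjusted p = 3.86e-05) were also among them.

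Against 2D EpiSCs, 6 genes were called in the ESC-derived culture, all lower, with a median of -0.72 beside -0.21 over all genes. Foxa1 had 0.509, 0.608 and 4.59 TPM there (-2.04, limma adjusted p = 0.00269), and Stra6 (-1.69, adjusted p = 2.27e-04), the transglutaminase Tgm2 (-1.48, adjusted p = 6.37e-04) and Rbp4 (-1.41, adjusted p = 0.00578) came next. Foxa1 and Rbp4 lost their calls with near-identical replicates averaged (adjusted p = 0.0682 and 0.0981). As with Cyp26a1, the highest of the 3 ESC-derived values of Foxa1, Rbp4 (1.39, 1.29 and 5.20 TPM) and Tgm2 (1.00, 0.896 and 3.20 TPM) was that of replicate 3, the library of that group with the highest summed endoderm markers. Replicate 3 also had the highest sums of streak and mesoderm (94.2 TPM), trophoblast (4.97 TPM) and neural markers (3.31 TPM) in that group. It stood apart over all genes as well, as given above. In the embryo-derived culture Stra6 was lower (-1.50, limma adjusted p = 5.06e-04) and the receptor partner Rxrg higher (1.22, adjusted p = 2.94e-04). Over all genes 1.07% were called higher and 7.75% lower. The median was -0.40 over the lists and -0.08 over all genes. Between both 3D cultures 1.98% of all genes were called in each direction. Rxrg was lower (-1.01, limma adjusted p = 0.00264) and Fabp5 higher (1.20, adjusted p = 0.00312) in the ESC-derived culture. Both lost their calls with near-identical replicates averaged (adjusted p = 0.0589 and 0.0899), and the difference of Rxrg came under 1 without ESC-derived replicate 3 (-0.94) or embryo-derived replicate 2 (-0.97) or 3 (-0.98).

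The genes whose pattern was most like that of a member were ranked by Pearson's r of log2(TPM + 1) over libraries, as a description. Libraries of a group share their stage or culture, so r reflects few independent points. Over the 15 embryo libraries, Aldh1a2 was most like Hapln1 (r = 0.998), Fli1 (0.998) and Foxd4 (0.998), and Crabp1 most like Ptn (0.993), Pcdh18 (0.988) and Map4k4 (0.983). Cyp26a1 was most like Syt13 (0.990), Rcc1 (0.990) and Sox4 (0.989). Crabp2 was nearest to Cwc22 (0.984), 2610008E11Rik (0.979) and Impact (0.978), and Dhrs3 to Cebpg (0.930), Osbpl6 (0.908) and Focad (0.903). Among the receptors, Rara was nearest to Pcbp4 (0.992), Bahcc1 (0.991) and Sox11 (0.985), Rarb to Mylk (0.975), Spg7 (0.971) and Fgfr1 (0.971), and Rarg to Plekha2 (0.984), Gramd3 (0.984) and Gba2 (0.978).

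Over the 12 culture libraries the nearest genes were others. Cyp26a1 was most like Fignl2 (r = 0.996), Rab37 (0.992) and Sema6d (0.991), and Crabp2 most like Dtna (0.986), Sult4a1 (0.977) and Zbtb32 (0.975). Crabp1 was nearest to Maneal (0.937), Apobec1 (0.914) and Sord (0.910), and Dhrs3 to Fst (0.902), Gm45902 (0.889) and Jpt2 (0.868). Rara was nearest to Calml4 (0.968), Lrtm2 (0.968) and Zfp977 (0.964), and Rarg to Zfp593 (0.981), Tada2a (0.981) and Rnf138 (0.980).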

How the data were processed

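The authors deposited gene-level TPM for 27 bulk RNA libraries, made with cutadapt 2.4, STAR and StringTie on mm10 and GENCODE VM19 as the study's methods state. Every library sums to 1000000, so depth is not known from the values. Lines that shared an identifier (12 identifiers) were summed and empty cells (56 lines) set to 0. Of 20774 autosomal protein-coding genes (biotypes from GENCODE vM21), those with a TPM above 2 in at least 3 libraries of a set were tested, 11541 in culture and 11880 in the embryo, as log2(TPM + 1). The study fitted a count model. TPM are not counts, so limma 3.58.1 in R 4.3.3 was used (lmFit over all groups of a set, eBayes without trend, Benjamini-Hochberg over all tested genes). It was also run on simulated data with independent noise, which lack the near-identical replicate pairs of these libraries. Nothing is read from that run. The members and all gene lists were chosen with earlier results of these data known. Named genes were all 10 members and, of the pathway lists, every called gene of a comparison with 4 or fewer, otherwise the 4 with the largest difference in each direction. Some genes that this rule names are not reported here, though the counts and medians of the lists include them. Likeness took the 3 genes of highest r. Same-numbered replicates of different groups did not deviate together (mean r of -0.03 over 18 pairs in culture and -0.02 over 30 in the embryo), so libraries were not paired. Alternatives were a pseudocount of 0.1, no filter, rescaled TPM, only the compared groups, a replicate block, an intensity trend, averaged near-identical replicates and leaving out each library. The upstream windows were searched in Python 3.11.15. Of 35 samples in the series, those other than the 27 were not analysed here.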

Additional observations from a re-analysis of the deposited data

How the results depend on the processing

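Of 320 recomputed counts of called genes, 296 stayed within 1.5 times the reported value, and no called member or pathway gene changed sign in any alternative. Averaging near-identical replicates gave 1 called member in each comparison of a 3D culture with 2D EpiSCs or with the other 3D culture, and 0 called pathway genes between both 3D cultures. Rescaled TPM gave 1 called member between ESC-derived 3D and 2D EpiSCs and 1 pathway gene between both 3D cultures. A pseudocount of 0.1 gave 4 pathway genes between both 3D cultures and 16 between E4.5 and E3.5. Between both 3D cultures, 1 member was called with no filter and 1 with only the compared groups. Leaving out a library gave 1 to 2 members for ESC-derived 3D against 2D EpiSCs, 1 to 2 members and 1 to 4 pathway genes between both 3D cultures, and 1 to 2 pathway genes between E6.5 and E5.5. In each case the cause was not tested.

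The replicate block, which pairs libraries that share a number and nothing else, changed no count: with it 2 members and 6 pathway genes were called between ESC-derived 3D and 2D EpiSCs, 2 and 2 between embryo-derived 3D and 2D EpiSCs, 2 and 7 between 2D EpiSCs and EpiLCs, 2 and 2 between both 3D cultures, 6 and 10 at E4.5, 5 and 13 at E5.5, 0 and 2 at E6.5 and 6 and 10 at E7.5. Unknown depth gives no counting error for low genes such as Cyp26b1, Aldh1a3 and, before E7.5, Aldh1a2 and Rarb. With 3 libraries a group, outliers within a group were not tested.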
